A study of Mus musculus with 6 samples.

Results

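The skeletal muscle genes examined here were the 10 genes Mybpc1, Acta1, Ckm, Tnnt3, Tnni2, Mylpf, Myh1, Myh4, Actn3 and Mb, taken by symbol from a deposited table of 18058 genes in mouse brainstem. All 10 were listed. They were selected on their levels in these same libraries, with the contrast between the genotypes already known, so the genotype differences of the 10 genes are a description and carry no test. RNA was sequenced from frozen brainstem tissue of mice aged 1 month, 3 wild type (WT, C57BL/6J) and 3 Rag1-/-, each library from an independent mouse. Rag1 encodes part of the recombinase that assembles antigen receptors, and the Rag1-/- strain that the methods name for the colony (B6.129S7-Rag1tm1Mom/J) lacks mature T and B cells through a germline allele present in every tissue. The study asked which brainstem transcripts differ in mice that lack these cells.

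Skeletal muscle contracts when myosin thick filaments pull on actin thin filaments in the sarcomere, a step that calcium permits through the troponin complex. Fast and slow fibres carry different versions of the same proteins, and creatine kinase and myoglobin supply energy and oxygen. The brainstem holds the motor neurons of cranial muscles but no muscle fibres. Some of these genes have other sites of expression: Mybpc1 also marks a class of VIP interneurons in cortex, and several sarcomere genes are transcribed at low levels in neurons or vessel walls.

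Transcripts per library were deposited in CPM, in which each gene count is divided by library size. The CPM that 1 read stands for, estimated from the steps among low values, gave depths of 34800000 to 46400000 reads in the WT libraries and 31600000 to 35100000 reads in those labelled Rag1-/-. A level of 3 reads was then 0.0646 to 0.0862 CPM in WT, against 0.0854 to 0.0950 CPM in those labelled Rag1-/-, which covers counting error only. Rag1 itself was at 0.115 to 0.388 CPM in WT, against 2.60 to 4.02 CPM in those labelled Rag1-/-, higher and not lower, so these libraries are called by their label and each direction rests on it. Xist was above 100 CPM in WT replicates 1 and 2 and at most 2.93 CPM in the other 4 libraries, so sex and genotype are partly confounded. The level of 5 pituitary genes (Gh, Prl, Pomc, Cga and Tshb), summed, was 655 CPM in WT replicate 3 and 57.0 CPM in WT replicate 2, against 2.57 to 5.32 CPM in the other libraries. The hindbrain gene Hoxa5 was at 0.349 CPM in replicate 2 labelled Rag1-/- and at 2.04 CPM in WT replicate 3, against 5.05 to 9.93 CPM elsewhere. Fewer cells of a type and less RNA per cell cannot be told apart in bulk tissue.

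To show the regulatory sequence of members with different behaviour, the 250 bases before the annotated start are printed for Mybpc1, whose level varied most between libraries above the level of 3 reads, for Acta1, the member with the highest level per length, and for Myh4, the member with the lowest. The sequences are from RefSeq on GRCm38.p6, which is the mm10 assembly, and run 5′ to 3′ on the strand of each gene: chr10:88605153-88605402 (minus), chr8:123894776-123895025 (minus) and chr11:67237562-67237811 (plus). Capitals mark matches on either strand to CAGCTG (an E-box of the kind bound by MyoD and myogenin), TATAAA, the CArG box of serum response factor and the MEF2 site.

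Mybpc1: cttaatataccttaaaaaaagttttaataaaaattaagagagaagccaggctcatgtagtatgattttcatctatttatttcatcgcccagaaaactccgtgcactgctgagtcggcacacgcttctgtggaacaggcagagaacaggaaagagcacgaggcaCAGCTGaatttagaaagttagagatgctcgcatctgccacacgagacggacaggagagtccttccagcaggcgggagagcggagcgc
Acta1: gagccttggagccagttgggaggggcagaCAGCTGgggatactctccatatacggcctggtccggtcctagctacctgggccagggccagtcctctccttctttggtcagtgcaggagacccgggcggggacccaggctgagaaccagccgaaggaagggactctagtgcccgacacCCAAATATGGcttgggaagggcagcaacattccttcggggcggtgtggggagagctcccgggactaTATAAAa
Myh4: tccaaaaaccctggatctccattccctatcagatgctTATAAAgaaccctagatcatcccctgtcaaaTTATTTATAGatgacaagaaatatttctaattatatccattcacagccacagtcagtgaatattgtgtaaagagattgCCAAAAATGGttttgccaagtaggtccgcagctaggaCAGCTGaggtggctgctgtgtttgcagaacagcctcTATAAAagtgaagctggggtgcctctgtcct

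The Mybpc1 window held CAGCTG, 87 to 82 bases before the start, and none of the other motifs. The Acta1 window held CAGCTG 221 to 216 bases before the start, a CArG box 73 to 64 bases before it and TATAAA 7 to 2 bases before it. The Myh4 window held CAGCTG, a CArG box, a MEF2 site and 3 matches to TATAAA, of which the one 179 to 174 bases before the start lies inside the MEF2 site at 182 to 173. Of the 7 members with a promoter in the RefSeq table, 6 held CAGCTG in at least 1 window. Mb held it in 2 of its 3 windows, which overlap each other and share the same site. Of all 32851 windows of the same length 13.0% held it, a share per window and not per gene. TATAAA was in 3 of the 7 (12.4% of all windows), the CArG box in 2 (1.47%) and the MEF2 site in 2 (2.92%), and each MEF2 match contains a TATAAA match. A match describes the letters and does not show binding.

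Muscle transcripts were scarce in these brainstems. Summed over the 10 genes, the level was 6.12, 6.29 and 12.7 CPM in the WT mice 1, 2 and 3 and 5.22, 5.99 and 5.35 CPM in the mice 1, 2 and 3 labelled Rag1-/-. WT replicate 3 stood above the other 5 libraries in this sum. Mybpc1 alone gave 6.38 CPM of its sum.

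Mybpc1 (chromosome 10, 88518279 to 88605152, minus strand) encodes slow skeletal myosin-binding protein C, which links thick and thin filaments. It was at 1.04, 0.840 and 6.38 CPM in the WT mice 1, 2 and 3. In the mice 1, 2 and 3 labelled Rag1-/- it was at 0.318, 0.570 and 0.484 CPM. The groups did not overlap, and WT replicate 3 was 6.14-fold above the next highest library. In estimated reads these levels were 44, 39 and 222 in WT and 11, 18 and 17 in those labelled Rag1-/-, whole numbers within 0.1 read in all 6. The mean was 2.75 ± 3.14 CPM (SD, n = 3) in WT, against 0.457 ± 0.128 CPM (SD, n = 3) in those labelled Rag1-/-. On the log2(CPM + 0.1) scale, on which 0.1 CPM is added before the log and changes of low genes are understated, the difference was -1.80 (Rag1-/- minus WT, standard error 0.64). Without WT replicate 3 it was -0.92, and the WT mean of the remaining libraries, 0.939 CPM, was 2.05-fold that of the libraries labelled Rag1-/-. The size of the Mybpc1 difference thus depended on 1 library, while its direction was the same without it. Without WT replicate 3, both remaining WT libraries have high Xist and all those labelled Rag1-/- have low Xist. Sex and genotype cannot be told apart in that comparison.

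**Figure D1:**
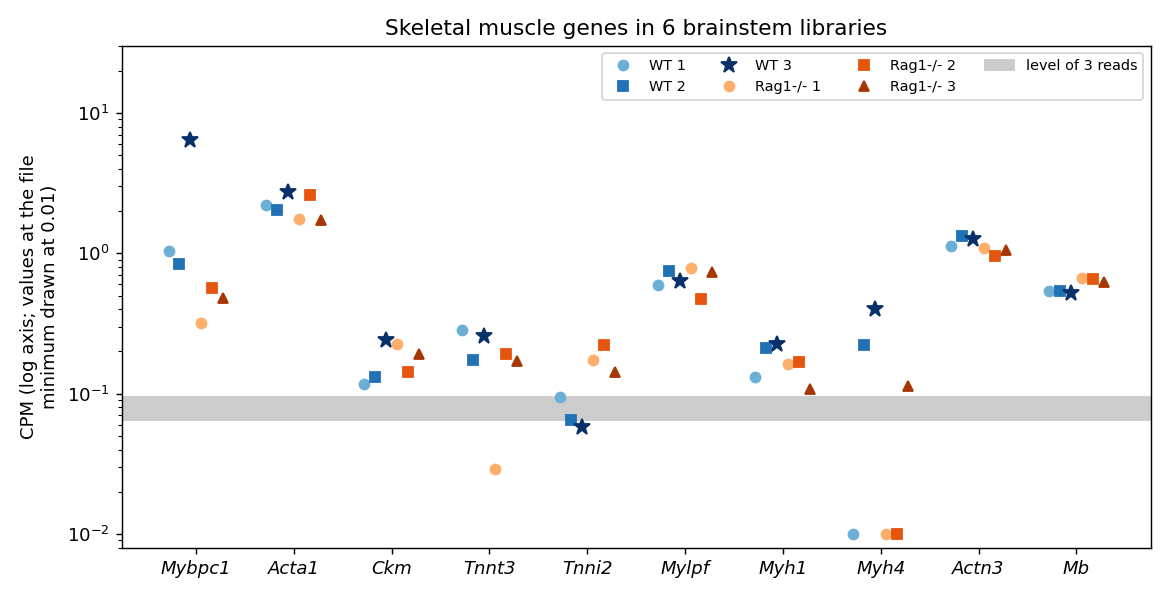
CPM of the 10 skeletal muscle genes on a log axis, 1 point per library, with the 3 WT libraries in blue and the 3 libraries labelled Rag1-/- in orange; the grey band spans the level of 3 reads over the libraries, and values at the file minimum are drawn at 0.01. Mybpc1 in WT replicate 3 (star, 6.38 CPM) stands apart from its other 5 points, and Ckm, Tnnt3, Tnni2, Myh1 and Myh4 lie near the band.

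The thick-filament motors of fast fibres were close to the limit of detection. Myh4 (chromosome 11, 67237812 to 67260447, plus strand), the myosin heavy chain of the fastest fibres, stood at 0.222 CPM in WT replicate 2, at 0.402 CPM in WT replicate 3 and at 0.114 CPM in replicate 3 labelled Rag1-/-. The other 3 libraries, of both genotypes, were listed at the file minimum (0.0001 CPM), and no fold is given. Myh1 (chromosome 11, 67200114 to 67224575, plus strand), the heavy chain of type IIx fibres, lies 13.2 kb from Myh4. It was at 0.131, 0.211 and 0.227 CPM in WT, against 0.162, 0.169 and 0.108 CPM in those labelled Rag1-/-, and the groups overlapped. Myh1 was not a whole number of reads in any library, and Myh genes have near-identical stretches, so the split of reads between Myh1, Myh4 and their neighbours is uncertain. Mylpf (chromosome 7, 127208899 to 127214287, plus strand), the fast regulatory light chain, was at 0.590, 0.754 and 0.632 CPM in WT, against 0.780, 0.475 and 0.740 CPM in those labelled Rag1-/-. Its groups overlapped with means of 0.659 ± 0.0851 and 0.665 ± 0.166 CPM (SD, n = 3 each).

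Acta1 (chromosome 8, 123891758 to 123894775, minus strand) encodes skeletal α-actin, the main protein of the thin filament. It was at 2.19, 2.02 and 2.72 CPM in WT, against 1.77, 2.62 and 1.72 CPM in those labelled Rag1-/-. The groups overlapped, and the log2 difference was -0.19 (standard error 0.19). Its values were not whole reads in any library, and actin genes are near-identical in coding sequence, so reads of other actins cannot be told apart from its own. Actn3 (chromosome 19, 4861216 to 4877909, minus strand), the α-actinin of fast-fibre Z-discs, was at 1.13, 1.34 and 1.26 CPM in WT, against 1.10, 0.951 and 1.05 CPM in those labelled Rag1-/-. The groups did not overlap, and the means differed by 1.20-fold (1.24 ± 0.103 against 1.03 ± 0.0755 CPM, SD, n = 3 each).

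Of the troponins, which hold the calcium switch on the thin filament, Tnnt3 and Tnni2 lie 54.4 kb apart on chromosome 7 and are the fast isoforms of troponin T and troponin I. Tnnt3 (142498836 to 142516009, plus strand) was at 0.283, 0.172 and 0.259 CPM in WT, against 0.0290, 0.190 and 0.171 CPM in those labelled Rag1-/-. Its groups overlapped, and the value in replicate 1 labelled Rag1-/- was a single read. Prr33, on the opposite strand and also in the table, overlaps Tnnt3 over 7936 bases. Tnni2 (142442468 to 142444405, plus strand) was at 0.0945, 0.0647 and 0.0576 CPM in WT, against 0.173, 0.222 and 0.142 CPM in those labelled Rag1-/-. The groups did not overlap, but the values stood for 2 to 7 reads, and 2 WT libraries were at or under 3 reads. The neighbouring genes therefore lay on opposite sides, with log2 differences of -0.63 for Tnnt3 and 0.69 for Tnni2, at levels where a few reads set the value.

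Ckm (chromosome 7, 19411094 to 19421583, plus strand), the muscle creatine kinase, is among the most abundant transcripts of muscle fibres. Here it was at 0.118, 0.132 and 0.240 CPM in WT, against 0.226, 0.142 and 0.192 CPM in those labelled Rag1-/-, overlapping. The antisense gene A930016O22Rik overlaps Ckm over 3952 bases, and the counting is not stated to use strand. Mb (chromosome 15, 77015487 to 77050668, minus strand), which encodes the oxygen carrier myoglobin, was at 0.543, 0.539 and 0.518 CPM in WT, against 0.664, 0.652 and 0.626 CPM in those labelled Rag1-/-. Its groups did not overlap and the means differed by 1.21-fold (0.533 ± 0.0132 against 0.648 ± 0.0193 CPM, SD, n = 3 each). Apol6, on the opposite strand, shares 5940 bases of its span with Mb.

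Across the 10 genes, 2 (Mybpc1 and Actn3) were lower in the group labelled Rag1-/- without overlap, beside 14.4% of the 16762 genes whose mean reached 0.1 CPM. Higher values without overlap were seen for 2 (Tnni2 and Mb), beside 3.98% of those genes. The median log2 difference of the 10 was -0.21, and that of the 16762 genes was -0.051. The 10 ranged from -1.80 for Mybpc1 to 0.69 for Tnni2, with 7 negative and 3 positive values. An absolute difference over 1 was seen for 1 of them (Mybpc1), beside 0.585% of all tested genes. Since the genes were chosen with this contrast known, nothing is read from these counts.

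**Figure D2:**
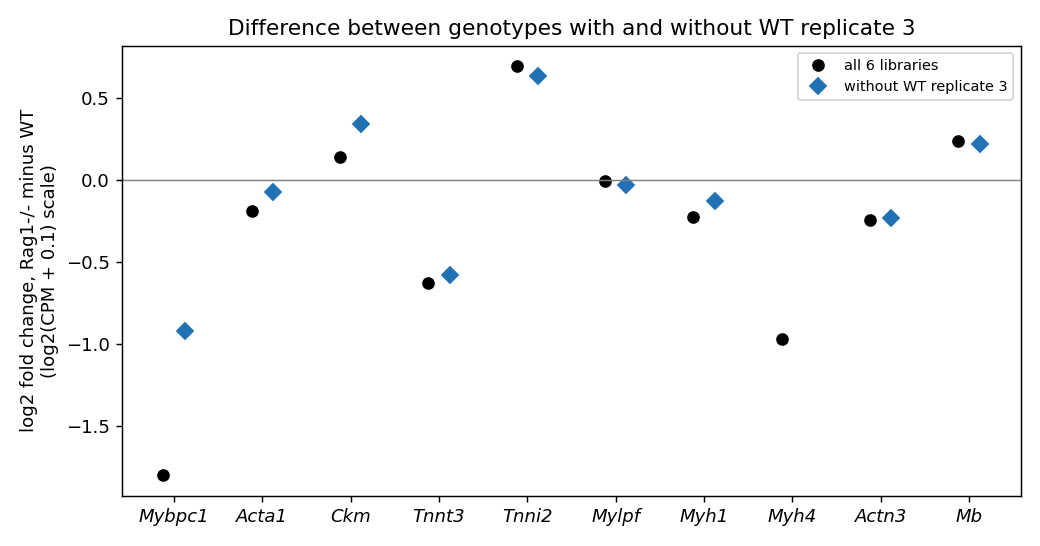
Difference between the genotypes on the log2(CPM + 0.1) scale (Rag1-/- minus WT) for the 10 genes, with all 6 libraries (black circles) and without WT replicate 3 (blue diamonds; Myh4 has none, since its mean then falls below 0.1 CPM). Mybpc1 moves from -1.80 to -0.92, and the points of both kinds lie on either side of 0.

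No common pattern was seen over the 10 genes. Over the 6 libraries, Pearson's r of log2(CPM + 0.1) had a median of 0.063 over the 45 pairs of genes, which share their libraries, with 25 positive and 20 negative values. It ran from -0.93 for Tnni2 with Actn3 to 0.95 for Tnni2 with Mb. Tnni2 stood for 2 to 7 reads, and Ckm, Tnnt3, Myh1 and Myh4 for at most 14, so counting error limits these r values. Of the 10 genes, 5 were highest in WT replicate 3, beside 28.7% of the 16762 genes, and the values over 2-fold above the other libraries' median there were those of Mybpc1 and Myh4. Against the median of the other 5 libraries, Mybpc1 was 9.67-fold higher in WT replicate 3 on the log2(CPM + 0.1) scale. It ranked 20th of 16762 genes by this excess, and the pituitary hormone genes Gh, Pomc, Prl and Cga held ranks 1 to 4.

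Levels can be compared between genes only per length, here as CPM per kilobase of merged exon (GENCODE). Acta1 was highest with 1.19 to 1.88 CPM per kilobase over the libraries, followed by Mylpf with a mean of 0.808. Neither range over the libraries overlapped that of its neighbours in this order. Mb (0.416), Mybpc1 (0.403) and Actn3 (0.395) followed with overlapping ranges, the one of Mybpc1 running from 0.0798 to 1.60 CPM per kilobase. Tnnt3 (0.158) lay below Actn3 without overlap, Tnnt3 and Tnni2 (0.144) overlapped each other, and Tnni2 overlapped Ckm (0.0638). The lowest were Myh1 (0.0276), which did not overlap Ckm, and Myh4 (0.0205), which overlapped Myh1. Among the 17728 genes with a length, the 10 lay between percentiles 2.65 (Myh4) and 35.7 (Acta1), in the lower part of the table. Ckm, Myh1 and Myh4, which are abundant in muscle fibres, were thus the lowest of the 10 per length.

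Mybpc1 belongs to a family of 3 myosin-binding proteins C, with Mybpc2 as the fast skeletal and Mybpc3 as the cardiac form. Mybpc2 (chromosome 7, 44501699 to 44524669, minus strand) was at 0.543, 0.560 and 0.834 CPM in WT, against 0.376, 0.539 and 0.513 CPM in those labelled Rag1-/-. Mybpc3 (chromosome 2, 91118144 to 91136516, plus strand), chosen with its values in view, stood at 0.496, 0.194 and 5.26 CPM in WT, against 0.404, 2.03 and 0.598 CPM in those labelled Rag1-/-. All 3 were highest in WT replicate 3, and for Mybpc3 the genotypes overlapped. In WT replicate 3, Mybpc3 was 3.17 above the median of the other 5 libraries on the log2 scale, rank 22 of 16762, near Mybpc1 with 3.27. It was also higher in replicate 2 labelled Rag1-/- than in the remaining 4 libraries, and in that library Mybpc1 was at 0.570 CPM. Without WT replicate 3 the log2 difference of Mybpc3 was 1.12, against -0.11 with it.

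**Figure D3:**
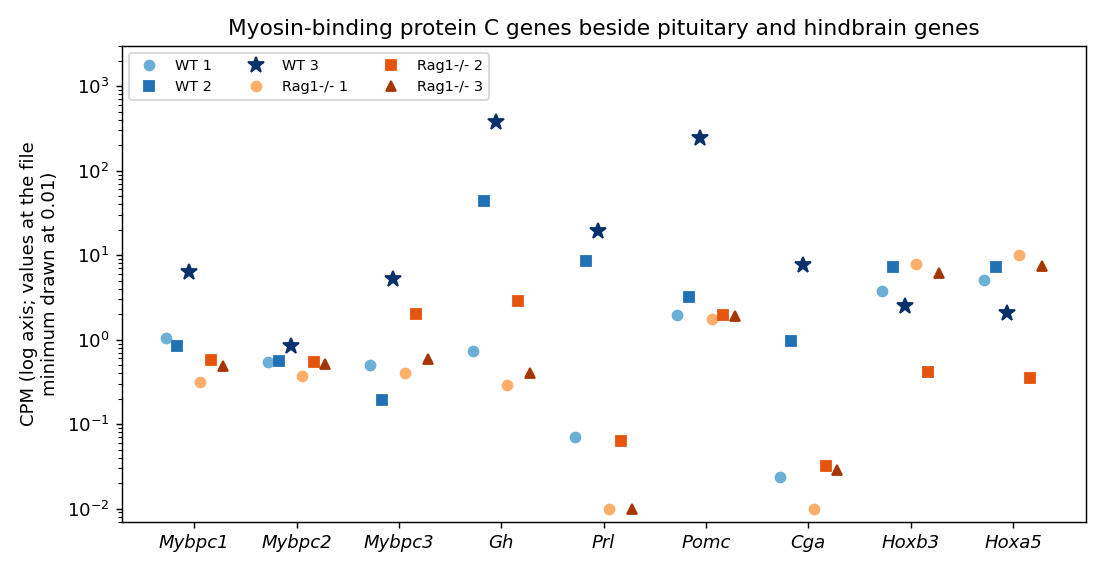
CPM on a log axis for the 3 myosin-binding protein C genes, 4 pituitary hormone genes and 2 hindbrain Hox genes, 1 point per library (WT in blue, libraries labelled Rag1-/- in orange; values at the file minimum drawn at 0.01). WT replicate 3 (star) is highest for each of the first 7 genes, and replicate 2 labelled Rag1-/- is lowest for Hoxb3 and Hoxa5.

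The pituitary genes were highest in the library in which Mybpc1 was highest, and their part in its level was not tested. The Hox genes were lowest in replicate 2 labelled Rag1-/- (Hoxb3 0.412 CPM, Hoxa5 0.349 CPM), where Mybpc1 was at 0.570 CPM, and not in WT replicate 3. In WT replicate 2, Gh was at 43.8, Prl at 8.49, Pomc at 3.19, Cga at 0.969 and Tshb at 0.560 CPM. In WT replicate 3 these genes were at 381, 19.2, 246, 7.56 and 1.24 CPM. The sum of 4 genes of VIP interneurons (Vip, Calb2, Crh and Cck) was 218 to 307 CPM in WT, with 254 CPM in WT replicate 3. It was 237 to 273 CPM in those labelled Rag1-/-. The part of dissection level and of these neurons in the Mybpc1 level was not tested. The sum of 8 heart genes was 4.77 to 10.7 CPM in WT, against 6.11 to 8.56 CPM in those labelled Rag1-/-, and Mybpc3 gave 5.26 CPM of the sum in WT replicate 3. Without Mybpc3, left out after its values were seen, the other 7 heart genes summed to 5.45, 4.58 and 5.44 CPM in WT and 8.16, 5.69 and 5.51 CPM in those labelled Rag1-/-. Since the gene left out was picked for its level in WT replicate 3, nothing is read from these sums. The 7 smooth muscle genes summed to 41.1 to 50.7 and 37.8 to 47.5 CPM.

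Bone and meninges lie next to the brainstem. The 6 bone genes summed to 47.1 to 59.6 CPM in WT, against 33.9 to 43.8 CPM in those labelled Rag1-/-, without overlap. Their sum was highest in WT replicate 3 through Col1a1 (38.6 CPM), and 1 of the 6 genes was highest there. Without Col1a1, left out after its values were seen, the bone sums were 22.1, 22.1 and 21.0 CPM in WT and 16.2, 17.1 and 19.97 CPM in those labelled Rag1-/-. Nothing is read from sums without a gene picked in this way. The 5 meningeal genes summed to 74.2 to 103 and 69.7 to 85.7 CPM, with the highest sum in WT replicate 3 and 3 of the 5 genes highest there. Their part in the muscle values was not tested. The neuronal genes Snap25, Syt1 and Rbfox3 summed to 2247 to 2410 CPM in WT, against 2188 to 2306 CPM in those labelled Rag1-/-. The 5 brainstem genes summed to 31.4 to 89.2 CPM in WT and 33.3 to 119 CPM in those labelled Rag1-/-. The lowest brainstem sum was that of WT replicate 3 (31.4 CPM), followed by replicate 2 labelled Rag1-/- (33.3 CPM), and its part in the muscle values was not tested. The sums of 4 genes of inner ear and cartilage (23.7 to 27.5 and 21.2 to 28.8 CPM) overlapped between the groups.

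The genes most like Mybpc1 over the 6 libraries, among 14932 candidates with mean CPM of 0.5 or more, were Ppp1r1b (r = 0.997), Appl2 (0.995), Mtcl1 (0.995), H2afy2 (0.994) and Sesn1 (0.992). Ppp1r1b, which encodes the dopamine-regulated phosphatase inhibitor DARPP-32, was at 35.6, 35.7 and 50.7 CPM in WT, against 29.2, 32.6 and 32.0 CPM in those labelled Rag1-/-. None of the 5 is a muscle gene on the lists used here. An r over 0.95 was reached by 208 genes, and over 6 shared libraries such values are a description. The sarcomere gene Neb had r = 0.951, Pomc 0.948, Gh 0.845 and Mybpc3 0.700. For Acta1 the nearest genes were Nrsn2 (r = 0.990), Zfand3 (0.988), Gm19522 (0.987), Stxbp2 (0.984) and Alx4 (0.984), again none from the muscle lists.

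A wider set of 79 skeletal muscle genes in 7 lists was then examined, 69 of them in the table and 61 above the same limit of 0.1 CPM. In limma-trend with Benjamini-Hochberg adjustment over 16762 genes, 0 of the 61 had an adjusted p under 0.05, beside 0.0477% of all tested genes (8 genes). At an unadjusted p under 0.05 there were 3 of the 61, or 4.92%, beside 11.6% of all tested genes. The median log2 difference of the 61 was -0.12, with 40 negative and 21 positive values, beside 11340 negative values among the 16762 genes. Without overlap, 5 of the 61 were lower (8.20%, beside 14.4% of all tested genes) and 2 were higher (3.28%, beside 3.98%). These shares were near or below those over all tested genes, and with so few calls over all genes the count of 0 does not show that the muscle genes were alike in the groups.

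The 3 genes were Tnni1 and Myom1, named after their values were seen, and Myh8. Tnni1, the slow troponin I, was at 6.49, 6.89 and 6.90 CPM in WT, against 8.95, 8.36 and 8.97 CPM in those labelled Rag1-/-. Its log2 difference was 0.37 (standard error 0.08, adjusted p = 0.254 by limma-trend), and it was higher in 3 of 3 libraries. Myom1, an M-band protein, was at 1.15 to 1.29 CPM in WT, against 1.31 to 2.15 CPM in those labelled Rag1-/- (log2 difference 0.47, adjusted p = 0.420 by limma-trend). Myh8, the perinatal myosin heavy chain, was at 0.220 to 0.474 CPM in WT, against 0.0830 to 0.258 CPM in those labelled Rag1-/- (log2 difference -0.91, adjusted p = 0.398 by limma-trend), and its groups overlapped.

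By list, the fast-fibre genes had 4 of 7 members tested, with 2 negative and 2 positive differences. Atp2a1, the fast calcium pump, was at 4.17 CPM in WT, against 4.23 CPM in those labelled Rag1-/- (means), Casq1, a calcium store protein, was at 1.26 and 1.35 CPM, and Myh2, the type IIa heavy chain, was at 0.250 and 0.129 CPM. The slow-fibre genes had 9 of 10 tested, with 4 negative and 5 positive differences, and summed to 40.1 to 46.0 CPM in WT, against 45.7 to 49.4 CPM in those labelled Rag1-/-. Here Tnnt1, slow troponin T, was at 11.7 to 17.0 and 15.3 to 17.8 CPM, Myh7, the slow heavy chain, was at 8.04 to 9.77 and 7.89 to 8.40 CPM, and Sln, a calcium pump inhibitor, was at 0.309 and 0.224 CPM (means).

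The Z-disc, M-band and giant sarcomere proteins had 21 of 24 genes tested, 16 with a negative and 5 with a positive difference. Ldb3, a Z-disc protein, was at 10.9 and 10.4 CPM (each such pair is the WT mean followed by the mean of those labelled Rag1-/-), Flnc, an actin crosslinker, was at 4.10 and 3.39 CPM, and Lmod2, a thin-filament nucleator, was at 0.152 and 0.257 CPM. Of the excitation-contraction coupling genes, 8 of 10 were tested, with 7 negative and 1 positive differences. Jph1, which joins the membranes of the triad, was at 7.22 and 6.51 CPM, Srl, a protein of the calcium store, was at 6.21 and 5.79 CPM, and Stac3, an adaptor of the muscle calcium channel, was at 0.475 and 0.256 CPM.

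Of the muscle metabolism genes, 9 of 11 were tested, with 4 negative and 5 positive differences. Pygm, the glycogen phosphorylase that is also made by astrocytes, was at 101 and 108 CPM, Fabp3, a fatty acid carrier that neurons also make, was at 41.0 and 42.2 CPM, and Cox8b was at 1.13 and 0.933 CPM. Of the myogenic factors, satellite cell genes and atrophy ligases, 6 of 11 were tested, with 5 negative differences and a positive one for Fbxo32. This ligase gene was at 27.1 and 29.2 CPM, and Pax7, which marks satellite cells and also midbrain neurons, was at 4.91 to 5.45 CPM in WT, against 4.33 to 6.11 CPM in those labelled Rag1-/-. The muscle-specifying factors Myod1 and Myog did not exceed 0.0576 and 0.0709 CPM in any library. Of the muscle side of the neuromuscular junction, 4 of 6 genes were tested, with 2 negative and 2 positive differences: Chrnb1 was at 1.10 and 1.24 CPM, Musk at 0.941 and 0.683 CPM and Chrne at 0.150 and 0.0699 CPM.

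In WT replicate 3, 4 of the 61 genes were over 2-fold above the median of the other 5 libraries (6.56%, beside 1.44% of the 16762 genes). These were Ryr1, Neb, Myom3 and Tcap, named after their values were seen. Neb, the thin-filament ruler nebulin, was at 2.96 CPM there and at 0.895 to 1.30 CPM in the other 5. Ryr1, the calcium release channel of muscle and of some neurons, was at 4.25 CPM there and at 1.36 to 2.34 CPM in the others. Myom3, an M-band protein, was at 1.29 CPM against 0.431 to 0.769 CPM. Tcap, which caps titin at the Z-disc, was at 0.489 CPM there, at 0.108 to 0.318 CPM in 4 others and at the file minimum in replicate 2 labelled Rag1-/-. The genes examined first were compared with the same median, as differences on the log2(CPM + 0.1) scale. In WT replicate 3, Ckm (0.240 CPM) stood at 0.49, Acta1 (2.72 CPM) at 0.41 and Mylpf (0.632 CPM) at -0.20. Mybpc1 stood at 3.27, Myh4 at 2.32, Tnnt3 at 0.40, Myh1 at 0.32 and Actn3 at 0.19. Mb and Tnni2 were below the median, at -0.23 and -0.62.

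**Figure D4:**
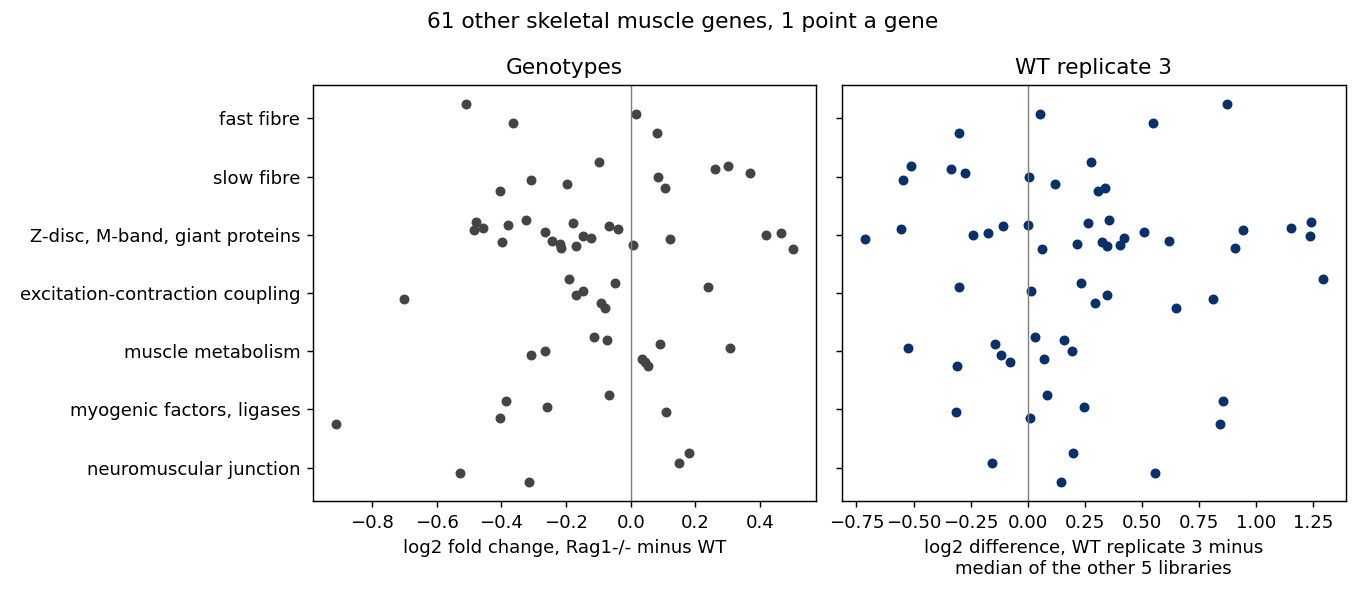
The 61 other skeletal muscle genes by list, 1 point per gene: on the left the difference between genotypes (Rag1-/- minus WT) and on the right WT replicate 3 minus the median of the other 5 libraries, both on the log2(CPM + 0.1) scale. The genotype differences lie on both sides of 0, from -0.91 (Myh8) to 0.50 (Lmod2), and in WT replicate 3 the Z-disc and coupling lists hold the 4 genes over 1.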

How the data were processed

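Brainstem RNA was sequenced by the submitters on an Illumina HiSeq. Reads were mapped with STAR 2.5.3a (mm10) and summarised over RefSeq transcripts with Partek Flow; the authors then deposited CPM values, which divide each gene count by library size, with a minimum of 0.0001. Filtering before deposit and use of strand are not given in the sources used here. Under 1 CPM, 84.2% to 86.0% of values were whole multiples of 1 read (tolerance 0.1 read). Whole reads were therefore not recovered, and count tests were not run. Gene ends are given 1 base before the deposited stop, which matched RefSeq for 70.9% of genes with an identical start.

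Genes averaging 0.1 CPM or more (16762) entered limma-trend on log2(CPM + 0.1) (limma 3.58.1, R 4.3.3; 3 against 3 samples, no covariate) with Benjamini-Hochberg adjustment. The test was checked on simulated data. The 10 genes and all lists were chosen with earlier results of these data known. Named were the 10 genes; per muscle list, any gene with adjusted p under 0.05, the 2 highest and the 1 with the largest difference; the 5 genes most like Mybpc1 and Acta1; and Rag1 and Xist as checks. Marker lists are given as sums. Exon lengths came from GENCODE (98.2% of genes matched). Alternatives were other pseudocounts, filters and scalings, arithmetic means, no trend, a block on replicate number, and each library omitted in turn.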

Additional observations from a re-analysis of the deposited data

How the results depend on the processing

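The number of genes with an adjusted limma p under 0.05 was 8 (6 lower, 2 higher). A pseudocount of 0.01 gave 4, no filter gave 4, a limit of 1 CPM on the mean gave 4, quantile normalization gave 5 (3 lower, 2 higher) and limma without the trend gave 2. With median-of-ratios rescaling 3 were lower and 3 higher. It ranged from 2 to 24 with 1 library left out, the 24 coming without WT replicate 3 (15 lower, 9 higher) and the 2 without replicate 1 or without replicate 3 labelled Rag1-/-. It was 24 with WT replicate 3 and replicate 2 labelled Rag1-/- left out together, an alternative chosen after seeing the data. The cause was not tested. None of the 61 other skeletal muscle genes was called under any of these settings. With 1 library left out, the median log2 difference of the 10 genes ranged from -0.26 to -0.073. The latter, without WT replicate 3, is over 9 genes, since Myh4 then falls under the filter, and with Myh4 kept it is -0.10. Mybpc1 kept its direction in all 15 alternatives, from -2.36 with arithmetic means to -0.92 without WT replicate 3. Among these, the other filters and the replicate block cannot change a gene's own difference, by construction, so they are no check of it. With pseudocount 1 it was -1.06, by the construction of that scale. For the other 9 genes, 10 of 126 values moved by more than the spread between replicates, and 7, all of Mylpf, had the other sign. Of 422 values of 29 other named muscle genes, 6 moved and 23, of 11 genes, had the other sign. The 126 and the 422 values include those of the filters and the replicate block, which could not move. Depth limits Tnni2, Tnnt3 and Myh4, each at 3 reads or fewer in at least 1 library. Deviations of equally numbered samples from their group means correlated across genes at 0.0926, -0.220 and -0.0183, so the numbers do not pair the mice. A fit with the replicate block called 3 genes. In this balanced design the block could not change the -1.80 of Mybpc1.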

Other observations

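Some heart genes were raised in 1 library. Myl7, the atrial myosin light chain, was at 0.809 CPM in replicate 1 labelled Rag1-/- and at most 0.0635 CPM in the other 5 libraries. In the same library Actc1, cardiac actin, was at 0.347 CPM against at most 0.0583 CPM, and Myh6, the α-myosin heavy chain, was at 3.37 CPM against 0.957 to 1.59 CPM. The cardiac genes Tnnt2, Tnni3, Nppa and Pln were not highest in that library, and Mybpc3 was at 0.404 CPM there. These genes were named after their values were seen.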
